A study of Homo sapiens with 12 samples.

Results

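Gene expression was compared between 2 genetically modified lines of human aortic endothelial cells, both kept on a plate coated with IgG and so without an added Notch ligand. The comparison rests on 4 of the 12 libraries of the series: 2 of the line in which TSPAN14 was targeted (TKO) and 2 of the line in which NOTCH1 was targeted (NKO), chosen by their labels. The cells are TeloHAEC, aortic endothelial cells immortalised with telomerase, and per the labels all were used at the same passage. Each knockout line was made with Cas9 and a single guide RNA, and the labels do not say whether a line is 1 clone. The control line (NT), labelled wild type, was measured on IgG too, and the same 3 lines were also kept on the Notch ligand DLL4. Coating was at 2.5 mg/mL for 24 h before RNA was taken, and polyadenylated RNA was sequenced. Each group has 2 libraries labelled as biological replicates, with nothing on separate cultures, so the p-values measure the spread between these libraries. With 1 line per targeted gene, the effect of the target and any other difference between the lines cannot be told apart.

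Notch receptors are cut after a ligand on a neighbouring cell pulls on them: first by the membrane protease ADAM10, then by gamma-secretase, which frees the intracellular part to enter the nucleus and act with the DNA-binding protein RBPJ. TSPAN14 belongs to the TspanC8 tetraspanins, membrane proteins that bind ADAM10, help it leave the endoplasmic reticulum and steer its choice of substrates. In endothelium Notch signalling is known for arterial identity, for limiting the number of sprouting tip cells and for slowing the cell cycle. The direct comparison of TKO with NKO cells sets targeting of a factor that acts on the protease against targeting of a receptor, at the level of signalling that cells give each other on the control coating.

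The genes HES1, HEY2 and HES4 encode transcriptional repressors of the HES and HEY family, are textbook targets of Notch and RBPJ, and all differed between the 2 edited lines. Their promoters are shown because HES1 moved in the opposite direction to HEY2 and HES4. Each is the 250 bases before the RefSeq start (GRCh38.p14), written 5′ to 3′ on the gene's strand, with TGGGAA or its reverse complement TTCCCA, the core that RBPJ recognises, in capitals.
HES1, chr3:194135898-194136147, plus strand: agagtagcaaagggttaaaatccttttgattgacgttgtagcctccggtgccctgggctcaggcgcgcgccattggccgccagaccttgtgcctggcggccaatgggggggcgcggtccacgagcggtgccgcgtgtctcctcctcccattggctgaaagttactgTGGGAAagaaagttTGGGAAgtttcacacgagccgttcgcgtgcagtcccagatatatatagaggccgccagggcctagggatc
HEY2, chr6:125749382-125749631, plus strand: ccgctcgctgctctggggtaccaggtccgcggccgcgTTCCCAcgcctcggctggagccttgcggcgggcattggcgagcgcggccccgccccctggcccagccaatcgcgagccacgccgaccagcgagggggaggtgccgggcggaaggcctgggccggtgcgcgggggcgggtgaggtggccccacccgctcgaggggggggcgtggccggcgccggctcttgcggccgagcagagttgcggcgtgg
HES4, chr1:1000098-1000347, minus strand: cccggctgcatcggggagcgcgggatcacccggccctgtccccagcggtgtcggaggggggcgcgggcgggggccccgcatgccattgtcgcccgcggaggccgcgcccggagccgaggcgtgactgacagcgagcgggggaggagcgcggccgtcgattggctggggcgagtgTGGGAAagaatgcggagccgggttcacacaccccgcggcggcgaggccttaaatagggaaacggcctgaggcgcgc
HES1 holds 2 matches, whose first bases lie 84 and 70 bases before the start. HES4 holds 1, at 76 bases, and HEY2 holds 1, at 213 bases, with 1 more that runs across the start. The promoter of DLL4 held none in the same window.

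These letters are common. In windows of 250 bases before to 50 after the start, TGGGAA on either strand was present in 30.8% of the promoters of genes higher in TKO cells, 25.5% of those lower in TKO cells, 27.9% of all genes tested and 24% of all promoters. The AP-1 motif TGANTCA was present in 9.05% of the genes higher in TKO cells, 6.66% of those lower, 6.96% of those tested and 7.71% of all promoters. The ATF4 motif TGATGNAA was present in 2.92%, 2.22%, 2.84% and 3.62% of the same groups in the same order. These shares are a description, and a match is not a site of binding. Promoters were found for 9642 of the 13299 genes tested.

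The 2 libraries of each line were alike and the lines were apart. Values are TPM, an abundance of transcripts relative to the whole library, and differences are TKO minus NKO of the mean log2(TPM + 1), which understates the difference of genes at low levels. Across the 13299 genes with at least 1 TPM in at least 2 libraries, Pearson's r was 0.9874 between the TKO libraries, 0.9879 between the NKO libraries and 0.9649 to 0.9666 between the lines. TPM keep no read numbers, so the depth behind a value is unknown. Fitted with limma over all 12 libraries, 2612 genes had an adjusted p under 0.05, or 19.6% of those tested. Of these 1448 (10.9%) were higher and 1164 (8.75%) lower in TKO cells, and 576 differed at least 2-fold, 354 of them higher and 222 lower. All 2612 had libraries that did not overlap between the lines. With 2 libraries against 2 such a separation has a probability of 0.333 in a gene without any difference, so it adds no support to the calls. In bulk RNA a difference in the share of cells that carry a transcript and a difference in its amount per cell cannot be told apart. The median over all genes tested was -0.03. Leaving out library 1 of the NKO line gave 1356 higher and 702 lower, and leaving out library 2 gave 1026 higher and 1097 lower. An exact permutation test of 1 gene with 2 libraries against 2 cannot give a two-sided p below 0.333, so single genes rest on limma's pooled spread. All 12 endothelial markers were present in both lines, and their summed TPM was 2577 to 2870.0 in TKO cells, 2644 to 2788 in NKO cells and 2606 to 2875 in NT cells.

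**Figure D1:**
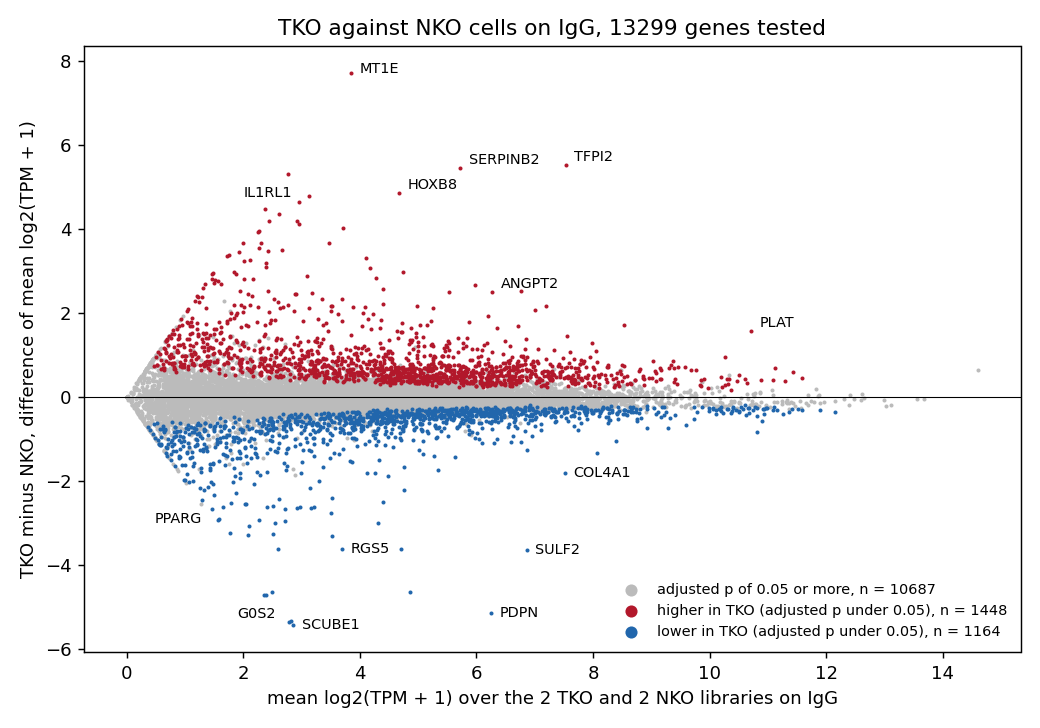
Difference between TKO and NKO cells on IgG (TKO minus NKO of mean log2(TPM + 1), y axis) against the mean log2(TPM + 1) of the 4 libraries (x axis), 1 point per gene tested. The 1448 genes higher in TKO cells are red and the 1164 lower are blue, and the named genes with the widest differences lie far outside the grey band of the genes that did not pass limma's test.

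Both targeted genes were still transcribed. TSPAN14 (chromosome 10, 80454166 to 80533123, plus strand, GENCODE 29 on GRCh38) was at 127 and 148 TPM in TKO cells, 201 and 179 TPM in NKO cells and 189 and 218 TPM in NT cells. Both TKO libraries were below all others, with a log2 difference of -0.47 ± 0.10 (SE, limma adjusted p = 0.0069). That call was marginal in single libraries, with an adjusted p of 0.0526 without library 2 of the TKO line and 0.0527 without library 1 of the NKO line. NOTCH1 (chromosome 9, 136494433 to 136545786, minus strand) was at 17.0 and 22.2 TPM in TKO cells, 19.2 and 15.6 TPM in NKO cells and 17.8 and 19.6 TPM in NT cells. The 3 lines overlapped, with a TKO minus NKO difference of 0.16 ± 0.16 (adjusted p = 0.55). An edit can disrupt a protein and leave its mRNA at the same level, so these TPM values do not check the NOTCH1 edit.

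Among the Notch effector genes the 2 edited lines differed in both directions. Of 18 genes listed 14 could be tested, of which 3 were higher and 2 lower in TKO cells, with a median difference of 0.07 against -0.03 over all genes. Of the 14, 35.7% were called, against 19.6% of all genes. HES1, the repressor that is a general Notch target, was at 9.58 and 9.07 TPM in TKO cells, 19.8 and 25 TPM in NKO cells and 40.7 and 42.6 TPM in NT cells. HES1 was thus lowest in TKO cells in every library, and fell by 1.17 ± 0.12 on the log2 scale against NKO cells (limma adjusted p = 8.4e-05). HEY2, a repressor of arterial endothelium, ran the other way, at 33.0 and 29.1 TPM in TKO cells, 15.6 and 13.4 TPM in NKO cells and 11.1 and 11.5 TPM in NT cells. Its log2 difference was 1.05 ± 0.11 (adjusted p = 8.5e-05), and the NKO libraries lay close to NT and the TKO libraries well above both. HES4, a family member that mice lack, was at 2.42 and 2.82 TPM in TKO cells, 0.706 and 1.32 TPM in NKO cells and 6.14 and 7.56 TPM in NT cells. HES4 was higher in TKO than in NKO cells by 0.86 ± 0.19 (adjusted p = 0.0086), both lines being under NT, and that call missed the threshold without library 3 of the TKO line (adjusted p = 0.0537) or library 1 of the NKO line (adjusted p = 0.0622).

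Cell cycle genes that Notch controls in other settings completed the called members. CCND1, cyclin D1, was at 284 and 370 TPM in TKO cells, 222 and 188 TPM in NKO cells and 159 and 173 TPM in NT cells, a log2 difference of 0.66 ± 0.13 (limma adjusted p = 0.0042). It lies on chromosome 11, most of whose genes were higher in TKO cells, as described further on. CDKN1A, the cyclin-dependent kinase inhibitor p21, was at 115 and 120 TPM in TKO cells, 145 and 167 TPM in NKO cells and 161 and 166 TPM in NT cells. It fell by 0.40 ± 0.09 on the log2 scale (adjusted p = 0.0086), and not past the threshold without library 2 of the NKO line (adjusted p = 0.0597). HEY1 and NRARP were not called: HEY1 was at 1.5 and 2.82 TPM in TKO cells and 1.88 and 1.53 TPM in NKO cells (difference 0.19 ± 0.21, adjusted p = 0.57), and NRARP, a feedback inhibitor of the Notch complex, was at 8.26 and 8.58 TPM in TKO cells and 9.44 and 11.1 TPM in NKO cells (-0.25 ± 0.21, adjusted p = 0.46).

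Of the receptors and ligands 9 of 11 were tested, 1 was higher and 1 lower, or 22.2% called against 19.6% of all genes. DLL4, the ligand that endothelial tip and arterial cells present, was at 13.2 and 16.4 TPM in TKO cells, 5.33 and 5.63 TPM in NKO cells and 5.09 and 5.41 TPM in NT cells. NKO and NT cells held about the same level and both TKO libraries were more than 2-fold above them, with a log2 difference of 1.28 ± 0.13 to NKO cells (limma adjusted p = 7.1e-05). JAG2, another ligand, was at 0.912 and 1.54 TPM in TKO cells and 2.07 and 3.30 TPM in NKO cells (-0.72 ± 0.23, adjusted p = 0.046), a call that ended without library 2 of the TKO line (adjusted p = 0.222) or library 2 of the NKO line, where the difference was -0.48 (adjusted p = 0.224). The ligand JAG1, at 30.1 and 37.2 TPM in TKO cells and 46.7 and 31.1 TPM in NKO cells, and the receptors NOTCH2 and NOTCH4 did not pass the test.

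The proteolytic machinery differed in few members. ADAM10 was at 79.2 and 137 TPM in TKO cells and 129.5 and 108 TPM in NKO cells, a wide spread with no call (-0.18 ± 0.22, limma adjusted p = 0.61). Of the TspanC8 tetraspanins, TSPAN33 was the other called member beside TSPAN14, at 0.193 and 0.116 TPM in TKO cells, 2.36 and 1.84 TPM in NKO cells and 6.37 and 7.91 TPM in NT cells (-1.42 ± 0.18, adjusted p = 0.00028). TSPAN15, which directs ADAM10 to N-cadherin, was at 36.0 and 54.3 TPM in TKO cells and 57.8 and 84.0 TPM in NKO cells and missed the threshold (-0.64 ± 0.21, adjusted p = 0.054). TSPAN5 and TSPAN17 differed by -0.10 and 0.13 and were not called. Of 20 modifiers and nuclear partners tested, PSEN2, a catalytic subunit of gamma-secretase, was the only one called, at 18.2 and 18.3 TPM in TKO cells and 9.47 and 8.49 TPM in NKO cells (0.95 ± 0.14, adjusted p = 0.00099).

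Arterial genes stood higher in TKO cells. Of 22 arterial genes tested, 12 were higher and 2 lower, with a median log2 difference of 0.74 against -0.03 over all genes, and without the genes of chromosomes 8, 11, 18 and 21 the count was 11 higher and 2 lower of 19. Of the 22 genes 63.6% were called, against 19.6% of all genes. DEPP1, a target of FOXO factors found in arterial endothelium, was at 12 and 14.3 TPM in TKO cells, 0.125 and 0.108 TPM in NKO cells and 0.0771 and 0.125 TPM in NT cells (3.66 ± 0.17, limma adjusted p = 2.3e-07). BMX, a non-receptor tyrosine kinase of arterial endothelium, was at 22.2 and 19.6 TPM in TKO cells, 10.2 and 9.86 TPM in NKO cells and 4.33 and 4.37 TPM in NT cells (0.98 ± 0.12, adjusted p = 0.00025). CXCR4, the chemokine receptor of arterial and tip cells, was at 2.35 and 4.14 TPM in TKO cells and was listed at 0 in both NKO and both NT libraries (adjusted p = 0.00015). These 3 genes were high in TKO cells alone or highest there, and none overlapped. EFNB2, the arterial ephrin, was low in all lines, at 1.92 and 1.59 TPM in TKO cells, 0.0262 and 0.0660 TPM in NKO cells and 0.274 and 0.344 TPM in NT cells (1.39 ± 0.19, adjusted p = 0.00046). LTBP4, a matrix protein that binds latent TGF-beta, was at 53.6 and 53.3 TPM in TKO cells, 25.5 and 29.1 TPM in NKO cells and 54.7 and 67.3 TPM in NT cells, so that here NKO cells were the line apart from NT.

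Of 7 venous and lymphatic genes tested, 1 was higher and 3 lower, or 57.1% called against 19.6% of all genes. EPHB4, the venous receptor of EFNB2, was at 43.0 and 51.2 TPM in TKO cells, 81.0 and 89.1 TPM in NKO cells and 76.8 and 91.8 TPM in NT cells (-0.84 ± 0.11, limma adjusted p = 0.00048). PDPN, podoplanin, the surface mucin that marks lymphatic endothelium, was at 8.88 and 15.7 TPM in TKO cells, 364 and 555 TPM in NKO cells and 169 and 180 TPM in NT cells (-5.13 ± 0.30, adjusted p = 1.4e-06). Podoplanin was therefore on opposite sides of NT in the 2 edited lines. MMRN1, multimerin of lymphatic endothelium and platelets, went against the rest of the list, at 66.7 and 70.8 TPM in TKO cells, 21.6 and 16.5 TPM in NKO cells and 8.52 and 7.59 TPM in NT cells (1.81 ± 0.14, adjusted p = 1.4e-05).

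**Figure D2:**
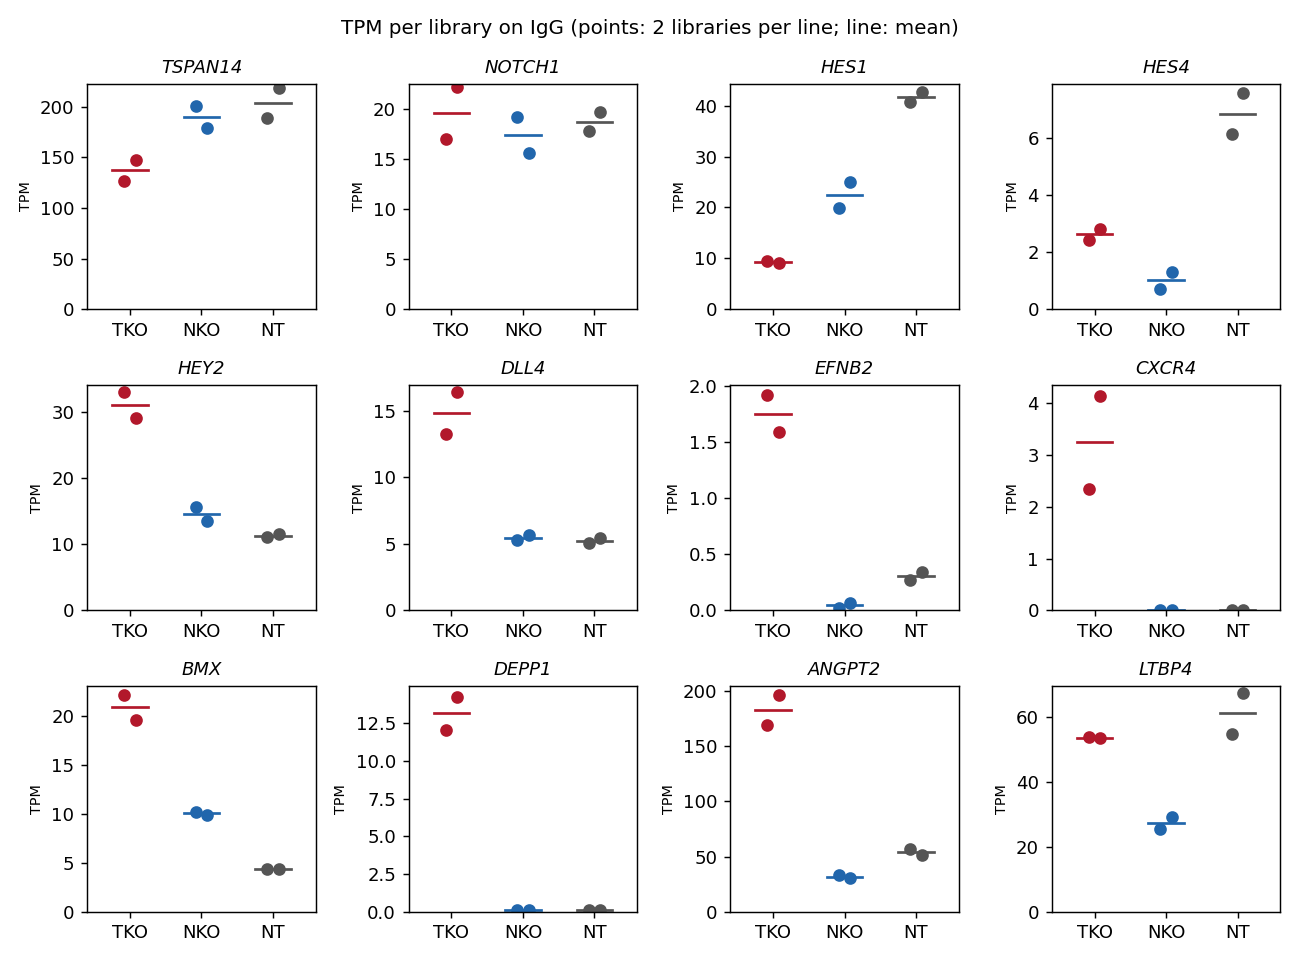
TPM per library on IgG in TKO, NKO and NT cells for 12 genes of the Notch pathway and of arterial or sprouting endothelium (points: the 2 libraries of a line, horizontal line: their mean, each y axis from 0). HES1 is lowest in TKO cells at 9.58 and 9.07 TPM, while HEY2, DLL4, BMX, DEPP1 and ANGPT2 are highest there.

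Sprouting genes were mixed, with 7 of 17 higher and 3 lower, or 58.8% called against 19.6% of all genes. Both counts moved with 1 library left out. The lower ones were none without library 2 of the TKO line or library 1 of the NKO line, and 1 without library 3 of the TKO line or library 2 of the NKO line. ANGPT2, angiopoietin 2, the secreted antagonist of TIE2 that loosens vessels, was at 169 and 196 TPM in TKO cells, 33.0 and 30.3 TPM in NKO cells and 57.3 and 51.5 TPM in NT cells (2.49 ± 0.10, limma adjusted p = 8.6e-08). It lies in the stretch of chromosome 8 described below, whose median difference was far smaller. PGF, placental growth factor, was at 136 and 144 TPM in TKO cells and 74.4 and 80.2 TPM in NKO cells (0.85 ± 0.08, adjusted p = 5.5e-05). Of 30 genes of endothelial identity and junctions, 5 were higher and 3 lower, with 2 higher without library 3 of the TKO line. Of the 30 genes 26.7% were called, against 19.6% of all genes. CLDN5, the tight junction claudin, was at 101 and 70.4 TPM in TKO cells, 34.9 and 33.4 TPM in NKO cells and 134 and 146 TPM in NT cells (1.28 ± 0.16, adjusted p = 0.00025). CDH5, VE-cadherin, was at 242 and 275 TPM in TKO cells and 381 and 341 TPM in NKO cells (-0.48 ± 0.09, adjusted p = 0.0031), and ENG, endoglin, was at 544 and 527 TPM in TKO cells and 739 and 786 TPM in NKO cells (-0.51 ± 0.07, adjusted p = 0.00072). The difference of ERG, an endothelial transcription factor on chromosome 21, was 0.54 and dropped to 0.31 without library 3 of the TKO line (adjusted p = 0.0971).

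Some of the genes furthest apart were at or near 0 in 1 of the 2 lines, and others were low there. MT1E, a metallothionein that binds zinc and copper (chromosome 16), was at 207 and 206 TPM in TKO cells and listed at 0 in both NKO libraries (adjusted p = 8.4e-11, limma), with 0 and 0.0888 TPM in NT cells. TFPI2, a matrix-bound inhibitor of serine proteases, was at 1224 and 1277 TPM in TKO cells, 14.3 and 47.6 TPM in NKO cells and 5.44 and 7.6 TPM in NT cells (5.52 ± 0.53, adjusted p = 4.9e-05). HOXB8, a homeobox factor, was at 138 and 134 TPM in TKO cells, 3.99 and 3.55 TPM in NKO cells and 4.43 and 3.88 TPM in NT cells (4.85 ± 0.14, adjusted p = 1.2e-08). In MT1E and HOXB8 the NKO libraries lay close to NT, and in TFPI2 they lay above NT and far below TKO. SERPINB2, the inhibitor of plasminogen activators PAI-2, differed in another way, at 417 and 288 TPM in TKO cells, 9.26 and 5.20 TPM in NKO cells and 67.3 and 78.5 TPM in NT cells (5.45 ± 0.32, adjusted p = 1.5e-06). It lay above NT in the one line and below NT in the other. POPDC3 was low in NKO cells alone, at 18.6 and 17.2 TPM in TKO cells, 0.268 and 0.180 TPM in NKO cells and 28.2 and 26.3 TPM in NT cells. The other genes among the 15 with the largest positive differences were RAB34, STEAP1, GIMAP7, TSTD1, BEX4, TNFSF4, PRRX1, FEZ1, PITX1 and IL1RL1, the receptor of interleukin 33, which was at 41.2 and 34.2 TPM in TKO cells and 0.268 and 0.901 TPM in NKO cells. Their differences ran from 3.92 for PITX1 to 5.31 for RAB34.

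Among the genes lowest in TKO cells relative to NKO cells, most were also present in NT cells. SCUBE1, a secreted and surface EGF-domain protein of platelets and endothelium (chromosome 22), was at 0.0629 and 0.161 TPM in TKO cells, 41.6 and 51.5 TPM in NKO cells and 38.7 and 49.1 TPM in NT cells (-5.41 ± 0.20, limma adjusted p = 3.5e-08). VAMP8, a SNARE protein of vesicle fusion, was at 0.240 and 0 TPM in TKO cells, 41.2 and 46.2 TPM in NKO cells and 60.1 and 49.4 TPM in NT cells (-5.33 ± 0.16, adjusted p = 1.2e-08). SULF2, which removes sulphate groups from heparan sulphate, was at 32.2 and 31.8 TPM in TKO cells, 382 and 436 TPM in NKO cells and 336 and 405 TPM in NT cells (-3.63 ± 0.17, adjusted p = 2.0e-07). TKO cells were the line apart in all 3. DNER, a single-pass protein with EGF repeats that was described as a Notch ligand, was at 0 and 0.0381 TPM in TKO cells, 21.7 and 30.4 TPM in NKO cells and 63.1 and 63.9 TPM in NT cells (-4.71 ± 0.17, adjusted p = 3.4e-08). TNFRSF6B, a soluble decoy receptor of FAS ligand, was listed at 0 in both TKO libraries and was at 19.96 and 31 TPM in NKO cells (adjusted p = 4.8e-07).

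Other genes of this set were found in NKO cells and not in NT cells. G0S2, an inhibitor of the lipase ATGL, was at 0.0843 and 0.0822 TPM in TKO cells and 44.2 and 41.9 TPM in NKO cells, and was listed at 0 in both NT libraries (-5.34 ± 0.17, limma adjusted p = 1.5e-08). FABP5, a fatty acid binding protein, was at 0 and 0.282 TPM in TKO cells, 22.5 and 32.7 TPM in NKO cells and 0.0982 and 0 TPM in NT cells (-4.64 ± 0.25, adjusted p = 7.8e-07). FABP5 has many near-identical pseudogenes, so its TPM may be split among them. RGS5, an inhibitor of G protein signalling best known from pericytes, was graded across the lines, at 2.55 and 2.85 TPM in TKO cells, 42.6 and 45.6 TPM in NKO cells and 136 and 144 TPM in NT cells (-3.61 ± 0.12, adjusted p = 2.7e-08). The remaining genes of the 15 were LRRC38, TFF3, LAPTM4B, CFI, CYP2S1 and AC009244.1, with differences from -4.64 to -3.25. The call of AC009244.1, a gene that was at 1.94 and 0 TPM in TKO cells and 13.3 and 30.3 TPM in NKO cells, ended without library 3 of the TKO line (adjusted p = 0.167), library 1 of the NKO line (adjusted p = 0.0601) or library 2 of the NKO line (adjusted p = 0.144), and its difference had the other sign on DLL4.

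COL4A1 and COL4A2 were lower in TKO cells. Of 39 matrix genes tested 9 were higher and 12 lower, with a median of -0.05. Of the 39, 53.8% were called, against 19.6% of all genes. COL4A1 and COL4A2 encode the collagen IV chains of the basement membrane and are transcribed in opposite directions from a shared stretch of chromosome 13. COL4A1 was at 93.9 and 101 TPM in TKO cells, 351 and 330.2 TPM in NKO cells and 486 and 431 TPM in NT cells (-1.80 ± 0.11, limma adjusted p = 1.4e-06). COL4A2 was at 161 and 177 TPM in TKO cells, 435 and 420.0 TPM in NKO cells and 559 and 571 TPM in NT cells (-1.34 ± 0.10, adjusted p = 7.4e-06). The chains thus ran in parallel across the 6 libraries. The 126 bases between their RefSeq starts (GRCh38.p14) are shown because both genes read away from it; it is 80.2% G and C, and 1 CCAAT box and 1 GGGCGG box are in capitals.
COL4A1 and COL4A2, chr13:110307158-110307283, plus strand: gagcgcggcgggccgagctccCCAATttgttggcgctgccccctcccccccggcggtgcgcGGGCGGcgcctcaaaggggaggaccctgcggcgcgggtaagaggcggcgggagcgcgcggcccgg
CCAAT on either strand was found in 34.6% and GGGCGG in 45% of all promoters in windows of 250 bases before to 50 after the start. Other matrix genes were called in either direction. EFEMP1, fibulin 3, was at 48.6 and 52.4 TPM in TKO cells, 5.89 and 9.84 TPM in NKO cells and 4.39 and 2.26 TPM in NT cells (2.57 ± 0.24, adjusted p = 3.8e-05). TIMP1, an inhibitor of matrix proteases, was lower, at 170 and 156 TPM in TKO cells and 269 and 296 TPM in NKO cells (-0.79 ± 0.08, adjusted p = 4.4e-05).

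Of 29 mesenchymal and contractile genes, 10 were higher and 6 lower, or 55.2% called against 19.6% of all genes. Both counts moved with 1 library left out. POSTN, periostin, a matrix protein of activated fibroblasts and of endothelial-to-mesenchymal transition, was at 299.7 and 229 TPM in TKO cells, 64.1 and 59.5 TPM in NKO cells and 0.394 and 0.0850 TPM in NT cells (2.07 ± 0.15, limma adjusted p = 6.7e-06). Periostin was near 0 in NT cells and present in both edited lines, more in TKO cells. LOX, which crosslinks collagen and elastin, was at 16.7 and 29.5 TPM in TKO cells, 2.66 and 1.69 TPM in NKO cells and 0.508 and 0.523 TPM in NT cells (2.89 ± 0.28, adjusted p = 5.1e-05). SNAI1, the repressor SNAIL of that transition, was lower, at 10.5 and 10.7 TPM in TKO cells, 25.4 and 23.2 TPM in NKO cells and 26.1 and 28.1 TPM in NT cells (-1.13 ± 0.11, adjusted p = 4.2e-05). Markers of other cell types gave the following levels beside these. The summed TPM of 12 fibroblast markers was 241 to 313 in TKO cells, 70.1 to 73.0 in NKO cells and 9.74 to 10.1 in NT cells. POSTN made up most of it in the edited lines and under 1 TPM of it in NT cells, and the defining markers COL1A1, COL3A1 and DCN were under 1 TPM and LUM and DPT at 0 in every library on IgG. The 12 smooth muscle and pericyte markers summed to 175 to 194 TPM in TKO cells and 152 to 165 TPM in NKO cells, with MYH11, DES, LMOD1 and CSPG4 under 1 TPM and KCNJ8 at 0. The 16 leukocyte markers summed to 64.4 to 73.2 TPM in TKO cells and 40.4 to 50.02 TPM in NKO cells, mostly CD68, with PTPRC under 1 TPM and TYROBP and HLA-DRA at 0. The 16 epithelial markers summed to 1109 to 1378 TPM in TKO cells and 1029 to 1389 TPM in NKO cells, which overlapped, with KRT5 and KRT14 at 0 and EPCAM and CDH1 under 1 TPM. Of the markers tested, 57.1% (epithelial), 100% (fibroblast), 75% (smooth muscle and pericyte) and 60% (leukocyte) were called, against 19.6% of all genes. These lists hold only 4 to 7 tested genes. Of 7 epithelial markers 2 were higher in TKO cells, KRT7 (2.34) and KRT19 (1.70), and 2 lower. KRT7 was at 1.34 without library 2 of the TKO line. Of 4 fibroblast markers 3 were higher and 1, FAP (-0.65), lower. FAP was at -0.43 without library 3 of the TKO line or library 2 of the NKO line. Of 4 smooth muscle and pericyte markers 2 were higher and 1 lower, and of 5 leukocyte markers 2 and 1.

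Several secreted regulators of the TGF-beta family were higher in TKO cells. Of 27 genes of activin, BMP and TGF-beta signalling 7 were higher and 3 lower, none of the 7 on chromosomes 8, 11, 18 or 21. Of the 27 genes 37% were called, against 19.6% of all genes. The numbers higher and lower were both smaller in every fit that left out 1 library of the comparison. BMP2, a ligand of BMP receptors, was at 47.9 and 54.1 TPM in TKO cells, 8.12 and 4.75 TPM in NKO cells and 14.1 and 16.4 TPM in NT cells (2.84 ± 0.22, limma adjusted p = 1.0e-05). FST, follistatin, which binds and blocks activins, was at 353 and 269 TPM in TKO cells, 76.3 and 60.02 TPM in NKO cells and 58.5 and 56.9 TPM in NT cells (2.17 ± 0.15, adjusted p = 5.1e-06). INHBA, the activin A subunit, was near 0 in NKO cells and not in the other lines, at 6.19 and 3.39 TPM in TKO cells, 0.0766 and 0.0725 TPM in NKO cells and 4.49 and 5.74 TPM in NT cells (2.39 ± 0.22, adjusted p = 3.9e-05). INHBA and FST were thus both higher in TKO than in NKO cells. The line apart from NT was NKO for INHBA and mainly TKO for FST. BMPER, an extracellular modulator of BMPs, was at 6.70 and 5.98 TPM in TKO cells and 0 and 0.0909 TPM in NKO cells (2.81 ± 0.21, adjusted p = 8.0e-06). ID1, a target of BMP receptors, was lower, at 101 and 88.5 TPM in TKO cells and 131 and 162 TPM in NKO cells (-0.62 ± 0.13, adjusted p = 0.0067), a call that ended without library 3 of the TKO line (adjusted p = 0.0519) or library 2 of the NKO line (adjusted p = 0.0538).

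Of 30 inflammatory genes 10 were higher and 4 lower, or 46.7% called against 19.6% of all genes. CXCL8, the neutrophil chemokine interleukin 8, was at 103 and 82.6 TPM in TKO cells, 43.1 and 26.8 TPM in NKO cells and 81.2 and 62.2 TPM in NT cells (1.42 ± 0.24, limma adjusted p = 0.0018). BCL2A1, an NF-kappa-B target that protects from cell death, was at 46.1 and 34.8 TPM in TKO cells, 14.4 and 14.5 TPM in NKO cells and 4.48 and 4.68 TPM in NT cells (1.41 ± 0.17, adjusted p = 0.00023). CSF3, the granulocyte growth factor G-CSF, was lower, at 13.7 and 10.5 TPM in TKO cells and 29.1 and 26.8 TPM in NKO cells (-1.15 ± 0.15, adjusted p = 0.00044). Of 39 interferon and antigen presentation genes 8 were higher and 1 lower, or 5 higher and 1 lower of 32 without the genes of chromosomes 8, 11, 18 and 21. Of the 39 genes 23.1% were called, against 19.6% of all genes. USP18, which restrains interferon receptors, was at 45.2 and 49.5 TPM in TKO cells and 21.5 and 18.5 TPM in NKO cells (1.21 ± 0.10, adjusted p = 2.0e-05). BST2, tetherin, was at 170 and 140 TPM in TKO cells, 78.5 and 78.8 TPM in NKO cells and 29.3 and 35.5 TPM in NT cells (0.96 ± 0.14, adjusted p = 0.00097).

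Genes of DNA replication were called in 1 direction. Of 42 tested, 14 were lower in TKO cells and none higher, with a median of -0.28, and all 14 lie outside chromosomes 8, 11, 18 and 21. Of the 42, 33.3% were called, against 19.6% of all genes. The number lower was 4 without library 3 of the TKO line, 5 without library 1 of the NKO line, 10 without library 2 of the TKO line and 17 without library 2 of the NKO line, with none higher in these fits. PCNA, the sliding clamp of DNA polymerases, was at 262 and 251 TPM in TKO cells, 384 and 362 TPM in NKO cells and 288 and 281 TPM in NT cells (-0.54 ± 0.07, limma adjusted p = 0.00025). ORC1, of the origin recognition complex, was at 6.66 and 6.65 TPM in TKO cells, 13.0 and 11.1 TPM in NKO cells and 8.20 and 8.99 TPM in NT cells (-0.76 ± 0.13, adjusted p = 0.0024). CDC6, which loads the replicative helicase, was at 44.3 and 52.6 TPM in TKO cells, 76.2 and 64.7 TPM in NKO cells and 52.7 and 52.7 TPM in NT cells (-0.53 ± 0.10, adjusted p = 0.0042). In these 3 genes the NKO libraries lay above NT and the TKO libraries at or below it. Of 38 mitotic genes 3 were higher and none lower, or 7.89% called against 19.6% of all genes, among them UBE2C, an enzyme of the anaphase-promoting complex, at 328 and 289 TPM in TKO cells and 217.5 and 217 TPM in NKO cells (0.50 ± 0.08, adjusted p = 0.00095). Of 31 cell cycle inhibitors and p53 targets 3 were higher and 9 lower, with 5 lower without library 2 of the NKO line. Of the 31 genes 38.7% were called, against 19.6% of all genes. BTG2, an antiproliferative p53 target, was at 1.85 and 2.87 TPM in TKO cells and 7.48 and 7.30 TPM in NKO cells (-1.34 ± 0.17, adjusted p = 0.00027), and MDM2, the ubiquitin ligase of p53, was at 20.1 and 18.6 TPM in TKO cells and 32.5 and 26.3 TPM in NKO cells (-0.58 ± 0.11, adjusted p = 0.0051).

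Of 13 genes of PPARG and lipid handling 2 were higher and 4 lower, with 1 higher without library 3 of the TKO line or library 2 of the NKO line, and outside chromosomes 8, 11, 18 and 21 none was higher and 2 lower of 9. Of the 13 genes 46.2% were called, against 19.6% of all genes. PPARG, the nuclear receptor of fatty acids, was at 0.0516 and 0.147 TPM in TKO cells, 7.09 and 7.27 TPM in NKO cells and 12.3 and 11.5 TPM in NT cells (-2.90 ± 0.15, limma adjusted p = 6.4e-07). ANGPTL4, its target and an inhibitor of lipoprotein lipase, was at 8.26 and 7.62 TPM in TKO cells, 42.3 and 57.2 TPM in NKO cells and 82.5 and 90.3 TPM in NT cells (-2.49 ± 0.15, adjusted p = 1.5e-06). LIPG, endothelial lipase on chromosome 18, was at 62.1 and 70.4 TPM in TKO cells and 143 and 135 TPM in NKO cells (-1.06 ± 0.11, adjusted p = 7.7e-05), against the direction of its chromosome. Of 30 cholesterol and fatty acid synthesis genes 20% were called, against 19.6% of all genes tested. Among them 4 genes were higher and 2 lower, and all 4 higher ones lie on chromosomes 8, 11, 18 or 21. These counts were 1 higher and 3 lower without library 3 of the TKO line, 4 higher and none lower without library 2 of the TKO line, 2 higher and 1 lower without library 1 of the NKO line, and 3 higher and 1 lower without library 2 of the NKO line.

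Metallothioneins moved apart from each other. Of 9 tested genes of metallothioneins and zinc transport 2 were higher and 3 lower, or 55.6% called against 19.6% of all genes. The lower calls of MT1A (-0.90) and SLC30A1 (-0.60) were both lost without library 2 of the TKO line, where SLC30A1 was at -0.33, or library 1 of the NKO line, where MT1A was at -0.60, so that 1 lower gene was left in either case. The call of MT1A was also lost without library 3 of the TKO line. MT1M was higher, at 6.44 and 8.34 TPM in TKO cells and 1.08 and 0.615 TPM in NKO cells (2.19 ± 0.28, limma adjusted p = 0.00037), like MT1E above. MT1X was lower, at 28.1 and 26.0 TPM in TKO cells, 57.9 and 51.2 TPM in NKO cells and 61.7 and 59.5 TPM in NT cells (-0.98 ± 0.12, adjusted p = 0.00027). MT2A, by far the most abundant, was at 3889.8 and 3783 TPM in TKO cells and 3977 and 4329 TPM in NKO cells and was not called (adjusted p = 0.25). These genes are close paralogs, so the authors' quantification could split reads between them.

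Of 35 genes of the ATF4 and unfolded protein response 3 were higher and 2 lower (8 higher without library 1 of the NKO line), or 14.3% called against 19.6% of all genes. DDIT4, an inhibitor of mTORC1, was at 19.3 and 23.2 TPM in TKO cells, 57.2 and 93.2 TPM in NKO cells and 73.3 and 72.3 TPM in NT cells (-1.74 ± 0.23, limma adjusted p = 0.00039). PHGDH, the first enzyme of serine synthesis, was at 17.2 and 23 TPM in TKO cells and 47.9 and 49.3 TPM in NKO cells (-1.25 ± 0.23, adjusted p = 0.0031). Of 28 hypoxia and glycolysis genes 4 were higher and 1 lower, or 17.9% called against 19.6% of all genes. Among the higher ones was ENO2, an enolase, at 24.8 and 25.7 TPM in TKO cells and 12.8 and 9.08 TPM in NKO cells (1.16 ± 0.18, limma adjusted p = 0.0011).

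Genes of coagulation and fibrinolysis were called in both directions, 5 of 18 higher and 5 lower, with 3 higher without library 2 of the NKO line and 3 lower without library 3 of the TKO line. Of the 18 genes 55.6% were called, against 19.6% of all genes. PLAT, tissue plasminogen activator, was at 2846 and 2925 TPM in TKO cells, 1011 and 940.1 TPM in NKO cells and 1535 and 1717 TPM in NT cells (1.56 ± 0.07, limma adjusted p = 2.0e-07), the lines lying on either side of NT. SERPINE2, protease nexin 1, was at 91.6 and 86.3 TPM in TKO cells and 49.3 and 42.3 TPM in NKO cells (0.95 ± 0.10, adjusted p = 0.00011). The thrombin receptor F2RL3 was lower, at 5.74 and 7.24 TPM in TKO cells, 15.9 and 19.6 TPM in NKO cells and 21.3 and 22.7 TPM in NT cells (-1.32 ± 0.15, adjusted p = 0.00015), as was F2RL2 (-1.05 ± 0.17, adjusted p = 0.0015). Of 12 IGF genes 2 were higher and 4 lower, and the lower ones were 2 without library 2 of the TKO line or library 3 of the TKO line. Of the 12 genes 50% were called, against 19.6% of all genes. IGFBP5, which binds insulin-like growth factors, was at 1.00 and 0.450 TPM in TKO cells, 9.83 and 7.95 TPM in NKO cells and 34.8 and 29.7 TPM in NT cells (-2.53 ± 0.42, adjusted p = 0.0017). IGFBP1 ran the other way, at 17.1 and 18.4 TPM in TKO cells, 3.02 and 7.0 TPM in NKO cells and 0.186 and 0.187 TPM in NT cells (1.72 ± 0.30, adjusted p = 0.0025).

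Positional and guidance genes also separated the lines. Of 15 HOX genes tested 5 were higher and 2 lower, and the 5 higher ones all belong to the HOXB cluster on chromosome 17. Of the 15, 46.7% were called, against 19.6% of all genes. Beside HOXB8, HOXB6 was at 111 and 105 TPM in TKO cells, 31.3 and 29.8 TPM in NKO cells and 79.6 and 79.2 TPM in NT cells (1.79 ± 0.08, limma adjusted p = 1.5e-07). HOXB13, at the far end of the same cluster, was lower, at 0.332 and 0.250 TPM in TKO cells and 2.22 and 3.5 TPM in NKO cells (-1.56 ± 0.21, adjusted p = 0.00047). Of 15 neural guidance and adhesion genes 7 were higher and 2 lower, with 1 lower without library 3 of the TKO line and none lower without any 1 of the other libraries of the comparison. Of these 15 guidance and adhesion genes 60% were called, against 19.6% of all genes. SLIT2, the secreted ligand of ROBO receptors, was at 7.88 and 9.91 TPM in TKO cells, 0.715 and 0.890 TPM in NKO cells and 0.215 and 0.167 TPM in NT cells (2.45 ± 0.20, adjusted p = 1.4e-05). NTN4, netrin 4, was at 95.3 and 104 TPM in TKO cells, 44.7 and 46.1 TPM in NKO cells and 27.2 and 28.3 TPM in NT cells (1.11 ± 0.10, adjusted p = 2.7e-05).

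**Figure D3:**
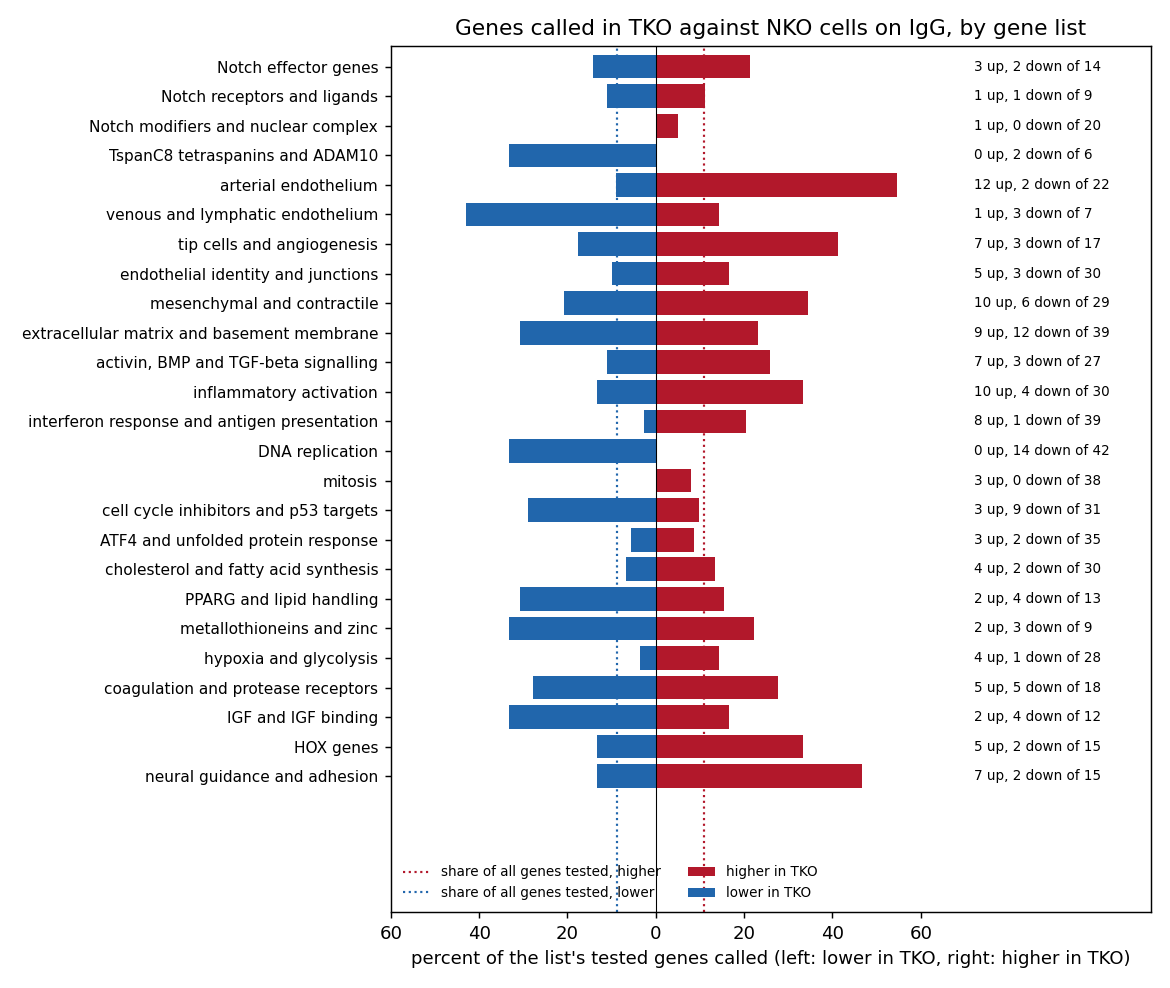
Percent of each gene list's tested genes that were higher (right, red) or lower (left, blue) in TKO than in NKO cells on IgG by limma's test, with the counts at the right edge. Dotted lines mark the shares over all genes tested, 10.9% higher and 8.75% lower; arterial genes reach 12 of 22 higher and DNA replication genes 14 of 42 lower with none higher.

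A large share of the genes higher in TKO cells lay on 4 chromosomes. Over 9560 genes with a mean of at least 5 TPM the median difference was -0.04, and on 19 chromosomes the medians lay between -0.12 and -0.001. On chromosome 11 the median was 0.47 and 386 of 591 genes were higher, with 11 lower. On chromosome 18 it was 0.43 with 66 of 133 higher and 1 lower, and on chromosome 21 it was 0.48 with 57 of 98 higher and 1 lower. On the other 19 chromosomes together 6.48% of genes were higher. Of all 1448 genes higher in TKO cells 664 (45.9%) lay on chromosomes 8, 11, 18 and 21, which hold 11.2% of the genes tested, and of the 1164 lower genes 52 (4.47%) did. Along chromosomes 11, 18 and 21 the median was above 0 in every group of 25 neighbouring genes. Against NT cells, TKO cells had medians of 0.53, 0.51 and 0.48 on chromosomes 11, 18 and 21, and NKO cells had 0.04, 0.09 and 0.04. TKO was therefore the line apart over these chromosomes as a whole. From 96.4 to 118.4 Mb on chromosome 11 the NKO medians were raised too, as given below. DNA was not measured, and the copy number of these chromosomes was not tested.

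Chromosome 8 split in its middle, with the other line apart. The boundary was placed after the values were seen. Over 150 genes that start between 0.2 and 61.5 Mb the median TKO minus NKO difference was 0.48, with 89 genes higher and 3 lower. There TKO cells had a median of 0.05 against NT cells and NKO cells -0.47. Over the other 182 genes, to 145.1 Mb, the medians were -0.07 for TKO minus NKO, -0.05 for TKO minus NT and 0.05 for NKO minus NT. The first 25 of these, from 63.0 to 81.3 Mb, were in between, at 0.145, -0.02 and -0.18 in the same order. The boundary is the end of a group of 25 genes, and lowered genes lie past it. ANGPT2 and PLAT lie in the first stretch, and their differences of 2.49 and 1.56 exceeded its median of 0.48. On chromosome 11, 25 genes from 96.4 to 111.9 Mb had medians of 1.28 in TKO and 0.93 in NKO cells against NT, and 0.39 between the edited lines. The next 25, from 111.9 to 118.4 Mb, had 0.67 in TKO and 0.73 in NKO cells against NT, and 0.36 between the edited lines. Outside the 4 chromosomes 1896 of 11816 genes were called in the same fit (16%). Of these 784 were higher and 1112 lower in TKO cells, so that most calls there were lower. TPM are relative, and over all genes the balance moved with the scaling and with single libraries. The median over all genes tested was -0.03, and -0.004 with median-of-ratios rescaling. It was 0.029 without library 1 of the NKO line and -0.09 without library 2 of that line. Of the 576 genes that differed at least 2-fold, 470 lay elsewhere and 106 on these 4 chromosomes.

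**Figure D4:**
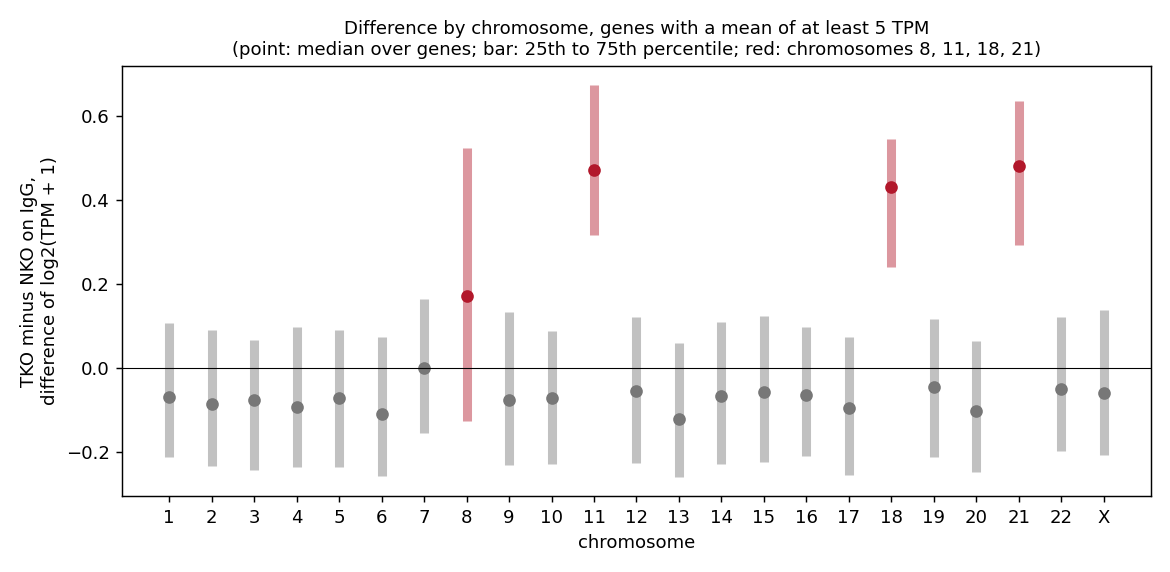
TKO minus NKO difference of log2(TPM + 1) on IgG by chromosome, for genes with a mean of at least 5 TPM (point: median over genes, bar: 25th to 75th percentile). Chromosomes 11, 18 and 21 sit at medians of 0.43 to 0.48, chromosome 8 at 0.17 with a wide bar, and the other 19 at or below 0.

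**Figure D5:**
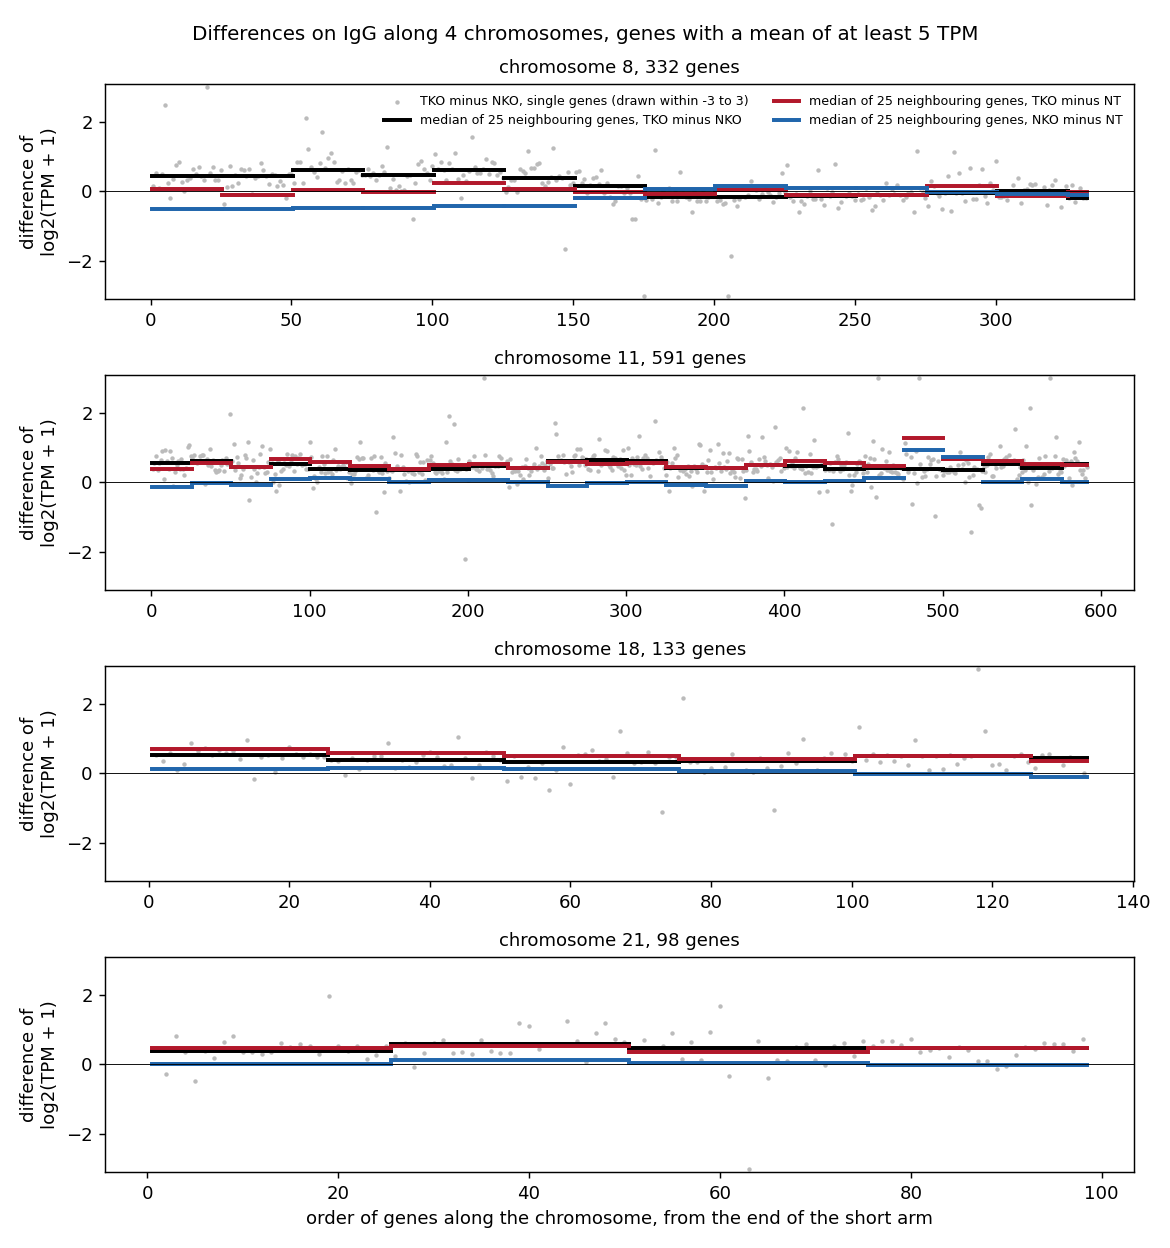
Differences of log2(TPM + 1) on IgG (y axis) by the order of genes along chromosomes 8, 11, 18 and 21 (x axis), with single genes as grey points for TKO minus NKO and the medians of 25 neighbouring genes as lines (the last group of a chromosome is smaller). On chromosomes 11, 18 and 21 the TKO minus NT line (red) is raised throughout, and on the first part of chromosome 8 the NKO minus NT line (blue) is lowered.

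The same 2 lines were compared on DLL4, in 4 other libraries. These enter the IgG test through the filter, which counts all 12 libraries, and through the shared estimate of the spread. A fit of the 4 IgG libraries alone called 689 genes. On DLL4 3039 genes were called (22.9%), 1721 higher and 1318 lower in TKO cells. Of these 1928 were called in the same direction on both coatings, or 73.8% of the IgG calls and 63.4% of the DLL4 calls, and 7 in opposite directions. Of the 2612 IgG calls 2543 (97.4%) had the same sign on DLL4. HES1 was called on IgG only: on DLL4 it stood at 50.3 and 53.6 TPM in TKO cells and 51.8 and 63.5 TPM in NKO cells, with no call (-0.14 ± 0.12, limma adjusted p = 0.46). DLL4 itself was further apart on the DLL4 coating, at 59.1 and 62.6 TPM in TKO cells and 9.75 and 11.9 TPM in NKO cells (2.39 ± 0.13, adjusted p = 7.4e-07), as was HES4, at 45.1 and 41.5 TPM in TKO cells and 6.28 and 9.19 TPM in NKO cells (2.36 ± 0.19, adjusted p = 1.0e-05). Tested directly, the TKO minus NKO difference depended on the coating in 20 genes (0.15%), 11 with a more positive and 9 with a more negative difference on DLL4, and 772 genes had an unadjusted p under 0.05. Leaving out 1 library left 2 to 19 genes, the fewest without library 1 of the NKO line on DLL4. HES1, DLL4 and HES4 were not among the 20, with adjusted p of 0.062, 0.061 and 0.087 for the dependence on the coating.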

How the data were processed

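Polyadenylated RNA of 12 libraries was measured, 2 in each of 6 groups, and the deposited values are TPM per gene symbol (35587 symbols), made by the authors with kallisto and edgeR on hg38 per the submitters' processing notes. Not given in the sources used here: versions, annotation and how transcripts were summed to symbols. The TPM of a library sum to 974989 to 977130. TPM keep no read numbers, so depth is unknown and precision is the spread between libraries. KPNA2P2 took 1.81% and 5.61% of the TKO libraries and 1.14% and 3.65% of the NKO libraries on IgG, which lowers all other values of a library by as much.

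Libraries are named by the column numbers (TKO and NT 2 and 3, NKO 1 and 2), since the labels number each group 1 and 2. Genes with at least 1 TPM in at least 2 libraries (13299) were fitted as log2(TPM + 1) with limma 3.58.1 (R 4.3.3): 1 mean per group, empirical Bayes with a variance trend, two-sided tests, Benjamini-Hochberg adjustment over all genes and a threshold of 0.05. The fit has 6 residual degrees of freedom, 10.8 after moderation. It was tested on simulated data. The contrasts were TKO minus NKO on IgG, the same on DLL4, and their difference. Positions come from GENCODE 29 (35464 symbols matched), and promoters from RefSeq, GRCh38.p14. Figures used Python 3.11.15 and matplotlib 3.10.9.

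The comparison, the 30 gene lists, the tests and the rule for naming genes were chosen with earlier results of these data known. The rule names the targeted genes, all tested members of the Notch effector, receptor and ligand, and TspanC8 lists, the 15 genes per direction with the largest called difference (mean of at least 5 TPM in a group, libraries not overlapping), up to 6 called members of each list by smallest p, and up to 10 genes per direction for the dependence on the coating. Not every gene that the rule names is reported here. The defining markers named at 0 or under 1 TPM were chosen after their values were seen. Alternatives were a pseudocount of 0.1, other filters and scalings, a replicate block, a fit without the variance trend, fits of fewer libraries, and leaving out each library. Added after seeing the data was a count of the main fit's calls outside chromosomes 8, 11, 18 and 21, with no new fit.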

Additional observations from a re-analysis of the deposited data

Results flagged for a closer look

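The TKO minus NKO difference on DLL4 minus that on IgG was tested in the same limma fit, and the genes called with a mean of at least 5 TPM in a group are given here as differences of log2(TPM + 1). They were picked out because the difference between the edited lines was not the same on the 2 coatings. More positive on DLL4 were PDE1A, a cyclic nucleotide phosphodiesterase (3.11), ART4, a surface ADP-ribosyltransferase homologue (2.31), EFNB2, the arterial ephrin (2.23), and TMOD1, which caps actin filaments (1.60). So were CASP17P (1.58), KLHDC8B (1.29), NR2F1, a nuclear receptor (1.10), IRF1, an interferon-regulated factor (1.09), MEIS2, a partner of HOX proteins (0.97), and FAM107A (0.88). More negative on DLL4 were ASNS, asparagine synthetase (-1.62), MT1E (-1.42), FST, follistatin (-1.38), RGCC (-1.13), MT2A (-1.12), HMGB1P6 (-1.05), PSAT1, of serine synthesis (-1.03), PLAT (-0.72) and HOXB6 (-0.70).

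EFNB2 was at 14.5 and 10.4 TPM in TKO cells and 0.0158 and 0.131 TPM in NKO cells on DLL4, against 1.92 and 1.59 TPM in TKO cells and 0.0262 and 0.0660 TPM in NKO cells on IgG. ASNS was at 18.2 and 15.4 TPM in TKO cells and 55.9 and 49.5 TPM in NKO cells on DLL4, while on IgG ASNS stood at 58.1 and 63.5 TPM in TKO cells and 61.0 and 58.2 TPM in NKO cells. MT2A was at 904 and 893 TPM in TKO cells and 2026 and 2192 TPM in NKO cells on DLL4, and at 3889.8 and 3783 TPM in TKO cells and 3977 and 4329 TPM in NKO cells on IgG. NR2F1 had opposite signs on the coatings, 0.32 on DLL4 and -0.79 on IgG. MT1E was listed at 0 in all NKO libraries, so its value here is the difference between the coatings in TKO cells alone. Its TKO minus NKO difference on either coating rests on the pseudocount. With each of the 8 libraries of the edited lines left out in turn, ART4 and MT2A passed the threshold in 8 of 8 fits, ASNS and PDE1A in 7, EFNB2 and FAM107A in 6, KLHDC8B in 4, and FST, MT1E, NR2F1 and TMOD1 in 3. CASP17P, PLAT, PSAT1 and RGCC passed it in 2, HMGB1P6 and MEIS2 in 1, and HOXB6 and IRF1 in 0 of 8.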

How the results depend on the processing

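The 2612 calls became 689 (469 higher, 220 lower in TKO cells) in a fit of the 4 libraries compared and 1504 (941 higher, 563 lower) in a fit of the 6 IgG libraries; both use fewer samples. Of the higher calls of the main fit 784 lay outside chromosomes 8, 11, 18 and 21, a count made without a new fit. A filter at a mean of 5 TPM left 327 genes with at least a 2-fold difference, against 576. Leaving out 1 library gave 702 to 1097 lower genes and 2 to 19 genes that depended on the coating, against 20. The coating count was 15 to 30 with a pseudocount of 0.1, median-of-ratios rescaling, quantile normalization or the block. Its counts under the other filters and without the variance trend are not given here. The other scalings and filters kept the remaining counts within 1.5 times.

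Pairing was not used: the TKO and NKO columns share only number 2, with a correlation of deviations of 0.023, and shared numbers elsewhere gave -0.154 to 0.279. With the replicate block 2139 genes were called. 

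Of 189 named genes tested 162 were called, and none of these changed direction in any setting. Calls were lost for 61 in the fit of 4 libraries, 19 in that of 6, 16 with no filter and 11 with the block, and for 35 when 1 library was left out. Uncalled genes changed sign: NOTCH4 to -0.0002 at a pseudocount of 0.1 and -0.0082 with quantile normalization, MT2A to 0.0301 with quantile normalization, and with the block DLK1 to -0.6473, TSPAN5 to 0.0282 and PSAT1 to 0.0652. Among the gene lists, the lower counts of the HOX, arterial, hypoxia, interferon, TspanC8 and Notch lists, at 0 to 2 genes, moved by 1 gene in 1 direction or the other when 1 library was left out. With 1 library left out the ranges were -0.0231 to 0.3399 for NOTCH1, -0.1131 to 0.5023 for HEY1, -0.4055 to 0.0598 for DTX3L, -0.2348 to 0.0426 for MYC, -0.2172 to 0.5745 for NOTCH2, -0.3063 to 0.3369 for NOTCH4, -0.4691 to 0.1034 for JAG1, -0.6266 to 1.185 for DLK1, -0.5708 to 0.2094 for ADAM10, -0.2614 to 0.0632 for TSPAN5, -0.0343 to 0.0901 for ASNS and -0.144 to 0.0237 for TMOD1. The cause was not tested. TPM hold no read numbers, so the depth that limits genes at low levels cannot be given.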

Other observations

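Further genes of the set with the largest differences were TNFSF4, PRRX1 and TFF3. TNFSF4, OX40 ligand, a surface signal to T cells, was at 18 and 27.5 TPM in TKO cells, 0.448 and 0.130 TPM in NKO cells and 0.308 and 0.372 TPM in NT cells. PRRX1, a homeobox factor of mesenchyme, was at 29.3 and 33.1 TPM in TKO cells, 0.526 and 1.27 TPM in NKO cells and 0.547 and 0.848 TPM in NT cells. TFF3, a secreted trefoil peptide of mucous epithelium, was at 11.1 and 3.59 TPM in TKO cells, 77.2 and 105 TPM in NKO cells and 238 and 241 TPM in NT cells (TKO minus NKO -3.61 ± 0.48, limma adjusted p = 0.00042), although its chromosome 21 had a positive median. VLDLR, a lipoprotein receptor, was at 24.1 and 44.2 TPM in TKO cells, 9.63 and 7.17 TPM in NKO cells and 25.8 and 25.4 TPM in NT cells (1.85 ± 0.24, adjusted p = 0.00037), so that NKO cells were the line apart.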
